A study of Mus musculus with 6 samples.

Results

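Interferon response genes are the genes that cells switch on when interferons bind their receptors. A set of 39 named genes of this kind was followed in livers of C57BL/6 mice made transgenic for CYP2D6, a human cytochrome P450 gene whose enzyme clears many drugs. The groups share strain and transgene, and the sources used here give neither the promoter that drives the transgene nor the animals' ages. Livers came from pre-pregnancy, from day 21 of pregnancy, which is close to term, and from day 7 postpartum, with 2 biological replicates and so 2 arrays a stage, 6 in all. A gene entered when a probe set carried its symbol alone, and its brightest probe set over the 6 arrays was used. That left 37 of the 39 among 18193 genes measured, while Isg15 and Ifi44 were not analysed here. The 37 comprised 7 gamma-type GTPases, 4 antigen processing genes, 2 chemokines, 5 transcription factors and 19 type I targets. Hepatocyte markers were bright on every array, with a mean log2 signal of 13.89 to 14.09 over 8 genes.

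Interferons act through a short relay. Type I interferons bind a receptor that activates the kinases Jak1 and Tyk2, and a complex that holds Stat2 and Irf9 then binds a DNA element called ISRE in the promoters of antiviral genes. Interferon gamma, made by T and NK cells, uses its own receptor with Jak1 and Jak2 and acts through the GAS element, inducing Irf1, immunity-related GTPases, guanylate-binding proteins and the antigen processing machinery. Many genes respond to both kinds of interferon, so the division used here is one of emphasis. In liver, hepatocytes, Kupffer cells and endothelial cells all respond to interferons.

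Levels are log2 signals, in which 1 unit is a 2-fold step. Array medians were 5.09 to 5.15, and replicate arrays correlated across genes, which are not independent, at 0.994 to 0.997. Each gene was tested with limma over all 6 arrays, two-sided. A difference was called at a Benjamini-Hochberg adjusted p under 0.05 over all 18193 genes, and ± gives the standard error of a log2 difference between 2 arrays and 2. Olfactory receptor genes, which liver is not known to use, gave a mark for dim probe sets, since 95% of 39 such genes lay under 5.26. Mx1, Oasl2 and Ifit2 had means under that mark, with arrays at 3.61 to 3.82, 4.05 to 4.42 and 4.92 to 5.38.

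The promoters of several members are shown because they carry the letters that interferon-activated factors are known to bind. RefSeq promoter windows of build GRCm38.p6, from 250 bases before to 50 after a gene's start, were at hand for 26 of the 37. The core of the ISRE (GAAA, any 2 bases, GAAA) and the GAS letters (TTCNNNGAA) were searched on both strands, and matches of either kind may overlap one another. The 250 bases before the start are given 5′ to 3′ on the gene's strand, with matches in capitals. Igtp (chr11:58199306-58199555, plus strand) and its neighbour Irgm2 (chr11:58214727-58214976, plus strand) encode immunity-related GTPases, and each has a GAS match followed by an ISRE core. Gbp2 (chr3:142620413-142620662, plus strand) encodes a guanylate-binding protein and Ifit1 (chr19:34640639-34640888, plus strand) an antiviral RNA-binding protein. Irf1 (chr11:53769764-53770013, plus strand), a transcription factor gene induced by interferon gamma, has a GAS match and no ISRE core in this window.
Igtp: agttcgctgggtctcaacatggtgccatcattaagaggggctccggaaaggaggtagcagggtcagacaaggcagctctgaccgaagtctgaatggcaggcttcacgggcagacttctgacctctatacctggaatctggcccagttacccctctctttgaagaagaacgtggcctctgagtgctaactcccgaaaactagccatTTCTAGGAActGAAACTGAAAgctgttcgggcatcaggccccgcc
Irgm2: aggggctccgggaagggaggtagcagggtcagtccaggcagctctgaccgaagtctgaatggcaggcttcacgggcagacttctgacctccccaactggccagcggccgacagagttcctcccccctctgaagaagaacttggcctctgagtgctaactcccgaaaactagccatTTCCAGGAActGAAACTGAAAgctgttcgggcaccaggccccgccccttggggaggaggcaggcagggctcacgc
Gbp2: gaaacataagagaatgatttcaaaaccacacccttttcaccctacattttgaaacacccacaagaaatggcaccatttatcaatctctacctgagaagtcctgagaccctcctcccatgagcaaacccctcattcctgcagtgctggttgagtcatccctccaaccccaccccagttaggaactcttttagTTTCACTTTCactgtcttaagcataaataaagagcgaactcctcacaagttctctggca
Ifit1: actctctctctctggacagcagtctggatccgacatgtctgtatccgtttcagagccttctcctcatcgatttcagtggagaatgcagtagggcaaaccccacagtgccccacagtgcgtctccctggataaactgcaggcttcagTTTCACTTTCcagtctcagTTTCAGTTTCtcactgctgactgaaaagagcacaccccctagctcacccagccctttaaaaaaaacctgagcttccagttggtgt
Irf1: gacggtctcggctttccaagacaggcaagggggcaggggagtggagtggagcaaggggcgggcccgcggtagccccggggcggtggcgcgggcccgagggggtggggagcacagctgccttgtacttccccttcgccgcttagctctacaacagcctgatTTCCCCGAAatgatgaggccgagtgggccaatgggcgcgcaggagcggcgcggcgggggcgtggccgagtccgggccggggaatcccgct

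In Igtp the ISRE core lay at -34 to -25 from the start and in Irgm2 at -64 to -55, preceded by GAS matches at -45 to -37 and -75 to -67. Ifit1 had a pair of ISRE cores, at -104 to -95 and -85 to -76. An ISRE core was found in the windows of 13 of 26 members (50%) and of 524 of 14452 measured genes with a window (3.63%). GAS letters were found in 9 of 26 members (34.6%) and 8.57% of those measured genes. All 5 GTPases with a window (Igtp, Irgm1, Irgm2, Gbp2 and Gbp3) held an ISRE core, against 0 of 3 antigen processing genes, 1 of 5 transcription factors and 6 of 11 type I targets. Of those 3 antigen processing genes, Psmb9 and Tap1 have windows that are largely the same stretch read on opposite strands, so they do not count separately. The windows of Igtp and Irgm2 share long, nearly identical stretches that hold their matches, so these 2 do not count separately either. Over all 32851 windows the shares were 3.44% for the ISRE core and 8.3% for GAS. These are matches of letters in a short window and say nothing of binding.

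Late pregnancy was set against the pre-pregnancy stage first, to see which interferon genes differed near term. Of the 37 genes, 13 fell and 1 rose, where 8.25% of all genes were called lower and 5.46% higher (13.7% in all). The median difference was -0.325 for the 37 and 0.045 for all genes. The falls were among GTPases (5 of 7), type I targets (7 of 19) and the transcription factor gene Stat2, and 0 of 4 antigen processing genes passed limma's test in either direction. Both pregnant arrays lay below both pre-pregnancy arrays in 19 of the 37 genes and above them in 5; over all genes these shares were 26% and 33.6%. They lay below all other 4 arrays in 15 genes and above in 4, against 13.8% and 16.3% of all genes.

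Each comparison set 2 livers against 2, and single arrays carried many calls. Dropping 1 array leaves a stage with 1 liver. In this comparison fewer of all genes were then called lower too, whichever array was dropped, so lost calls are not particular to these members. The 13 falls became 4 (Igtp, Irgm2, Zbp1 and Parp9) on dropping pre-pregnancy replicate 1, 5 on dropping pre-pregnancy replicate 2 and 8 on dropping pregnancy replicate 2. Igtp, Zbp1 and Parp9 kept their calls whichever of the 6 arrays was dropped.

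**Figure D1:**
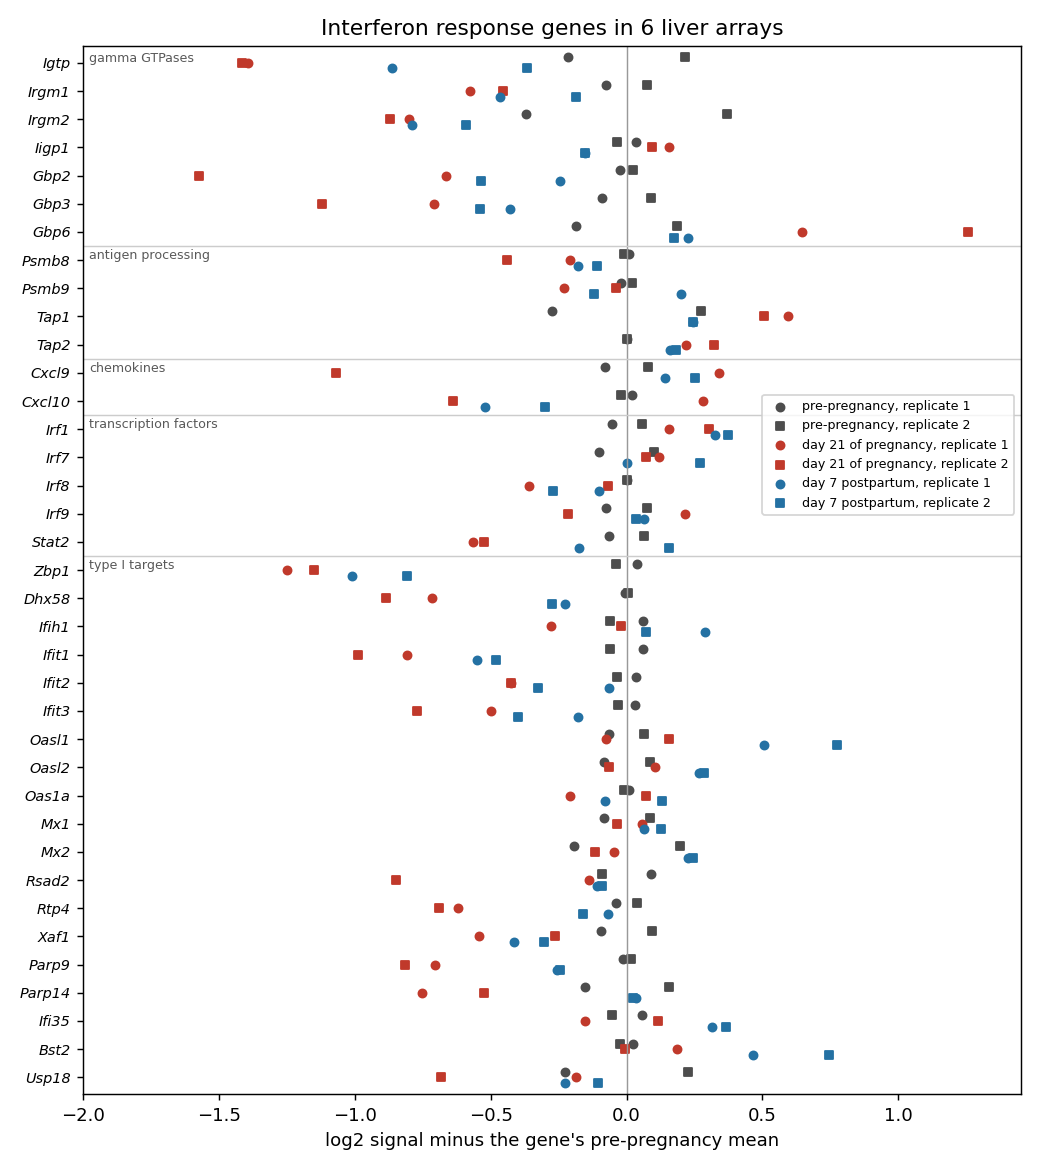
Log2 signal of each of the 37 interferon response genes on the 6 arrays minus the gene's pre-pregnancy mean, grouped by role; grey is pre-pregnancy, red day 21 of pregnancy and blue day 7 postpartum, with circles for replicate 1 and squares for replicate 2. The red marks of Igtp, Gbp2, Gbp3, Zbp1 and Ifit1 lie left of the others, those of Gbp6 lie right, and the blue marks of Oasl1 and Bst2 lie right.

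The gamma-type GTPases act on the vacuoles in which intracellular parasites and bacteria live. Igtp, also known as Irgm3, a regulatory member that guards host membranes, stood at 10.5 and 10.93 in the pre-pregnancy stage, 9.32 and 9.3 at day 21 and 9.85 and 10.35 postpartum. Its stages did not overlap, with pre-pregnancy highest and pregnancy lowest. In pregnancy it was 2.65-fold lower (-1.405 ± 0.192, adjusted p = 0.00517), and the log2 difference was -1.62 to -1.19 over the arrays dropped in turn.

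Irgm2, the neighbouring regulatory gene, was at 9.14 and 9.88 pre-pregnancy, 8.71 and 8.64 near term and 8.72 and 8.92 after birth. Pre-pregnancy replicate 2 lay well above the other 5 arrays. Irgm2 fell by 0.835 (SE 0.217, adjusted p = 0.0422); it was no longer called on dropping pre-pregnancy replicate 2 (0.114), pregnancy replicate 1 (0.0996), pregnancy replicate 2 (0.138), postpartum replicate 1 (0.0629) or postpartum replicate 2 (0.0629). With pre-pregnancy replicate 2 dropped the difference was -0.465, and with pre-pregnancy replicate 1 dropped -1.205.

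Irgm1, needed for autophagy of intracellular bacteria, was at 9.33 and 9.48 in the pre-pregnancy stage, 8.83 and 8.95 at day 21 and 8.94 and 9.22 postpartum. The pregnant arrays lay below both pre-pregnancy ones and Irgm1 fell by 0.515 (SE 0.129, adjusted p = 0.0369), but it was no longer called on dropping pre-pregnancy replicate 1 (0.131), pre-pregnancy replicate 2 (0.161), pregnancy replicate 1 (0.116) or pregnancy replicate 2 (0.0805). Iigp1, an effector GTPase that coats parasite vacuoles, was at 13.15 and 13.08 pre-pregnancy, 13.27 and 13.21 near term and 12.96 in both livers after birth and was not called (0.125 ± 0.0984, adjusted p = 0.426).

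Guanylate-binding proteins are larger GTPases that assemble on pathogen membranes. Gbp2 measured 7.41 and 7.46 in the pre-pregnancy stage, 6.77 and 5.86 at day 21 and 7.19 and 6.9 postpartum. The pregnant livers were lowest but far apart. Gbp2 fell 2.17-fold (-1.12 ± 0.26, adjusted p = 0.0298), with -1.575 on dropping pregnancy replicate 1 and -0.665 on dropping pregnancy replicate 2; it was no longer called on dropping pre-pregnancy replicate 1 (0.166), pre-pregnancy replicate 2 (0.129) or pregnancy replicate 2 (0.0523). Its other probe set gave -0.77 ± 0.24, adjusted p = 0.0749 when each probe set was tested by itself.

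Gbp3 was at 7.57 and 7.75 pre-pregnancy, 6.95 and 6.54 near term and 7.23 and 7.12 after birth, with no overlap between stages and pregnancy lowest. It fell 1.89-fold (-0.915 ± 0.151, adjusted p = 0.00989), and it was no longer called on dropping pre-pregnancy replicate 1 (0.0677) or pre-pregnancy replicate 2 (0.0691).

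Gbp6 went the other way. It stood at 8.49 and 8.86 in the pre-pregnancy stage, 9.32 and 9.93 at day 21 and 8.9 and 8.85 postpartum, so that the pregnant arrays were the highest of the 6. It rose 1.93-fold (0.95 ± 0.205, adjusted p = 0.0238), 0.645 to 1.255 over the arrays dropped in turn, and it was no longer called on dropping pre-pregnancy replicate 1 (0.174), pre-pregnancy replicate 2 (0.0598) or pregnancy replicate 2 (0.0742). A second Gbp6 probe set, tested by itself, gave 0.44 ± 0.155, adjusted p = 0.104. Genes of this family are close paralogs in clusters, so probe sets may read more than 1 of them.

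Other interferon GTPases outside the 39 came from a list of 12, of which 3 had a probe set of their own. Gbp7, next to Gbp3 in the RefSeq gene order, was at 9.33 and 9.17 pre-pregnancy, 7.85 and 8.19 near term and 8.79 and 8.77 after birth. Gbp8, from the same cluster as Gbp6, was at 7.24 and 7.16 in the pre-pregnancy stage, 6.09 and 5.49 at day 21 and 6.75 and 6.65 postpartum. Ifi47, an immunity-related GTPase gene, was at 10.22 and 10.23 pre-pregnancy, 8.88 and 8.99 near term and 9.33 and 9.5 after birth. In each the pregnant arrays were the lowest, as in 13.8% of all genes. All 3 were called lower, where 8.25% of all genes were. Gbp7 fell by 1.23 (SE 0.135, adjusted p = 0.00255), Gbp8 fell by 1.41 (SE 0.182, adjusted p = 0.00423) and Ifi47 fell by 1.29 (SE 0.109, adjusted p = 0.00109) on the log2 scale.

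The antigen processing genes sit side by side in the MHC region. Psmb8 and Psmb9 encode catalytic subunits of the immunoproteasome, and Tap1 and Tap2 the transporter that carries peptides to MHC class I molecules. In pregnancy 0 of the 4 passed limma's test; at an unadjusted p under 0.05, which 31% of all genes had, 1 was lower and 2 were higher. Psmb8 stood at 9.93 and 9.91 in the pre-pregnancy stage, 9.71 and 9.48 at day 21 and 9.74 and 9.81 postpartum (-0.325 ± 0.113, adjusted p = 0.0981), lowest near term. Tap1 was at 6.55 and 7.1 pre-pregnancy, 7.42 and 7.33 near term and 7.07 in both livers after birth (0.55 ± 0.17, adjusted p = 0.071), highest near term. Its difference was 0.825 (adjusted p = 0.0282) on dropping pre-pregnancy replicate 2 and 0.275 on dropping pre-pregnancy replicate 1.

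Tap2 was at 7.39 in both livers in the pre-pregnancy stage, 7.61 and 7.71 at day 21 and 7.55 and 7.57 postpartum (0.27 ± 0.0991, adjusted p = 0.111), with every later array above both pre-pregnancy ones. Psmb9 spanned 8.81 to 9.24 over the 6 arrays (-0.135 ± 0.135, adjusted p = 0.534), and its postpartum arrays overlapped the others. Of 12 further genes of MHC class I and peptide loading, 1 fell and 0 rose in pregnancy, near the 8.25% of all genes called lower. That gene was Psmb10, another catalytic subunit of the immunoproteasome, at 9.93 and 9.81 pre-pregnancy, 9.3 and 9.44 near term and 9.95 and 9.92 after birth (-0.5 ± 0.107, adjusted p = 0.0232), and it was lowest near term. The class I heavy chain gene H2-K1 (-0.325 ± 0.104, adjusted p = 0.0766) and the light chain gene B2m (-0.065 ± 0.0978, adjusted p = 0.688) were not called.

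The chemokine genes Cxcl9 and Cxcl10, whose products draw T cells that bear the receptor Cxcr3, differed widely between the pregnant livers. Cxcl9 was at 8.37 and 8.53 in the pre-pregnancy stage, 8.79 and 7.38 at day 21 and 8.59 and 8.7 postpartum. Pregnancy replicate 1 lay above every other array and replicate 2 below, so the difference was -1.07 (adjusted p = 0.00762) on dropping pregnancy replicate 1 and 0.34 on dropping pregnancy replicate 2. Cxcl10 was at 6.45 and 6.41 pre-pregnancy, 6.71 and 5.79 near term and 5.91 and 6.13 after birth, and the pregnant livers again held both the highest and the lowest array. Neither gene was called (adjusted p = 0.544 and 0.671 by limma).

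Among the transcription factors, Stat2, which joins Irf9 in the type I complex, was at 6.59 and 6.72 in the pre-pregnancy stage, 6.09 and 6.13 at day 21 and 6.48 and 6.81 postpartum. The pregnant arrays were the lowest and Stat2 fell by 0.545 (SE 0.132, adjusted p = 0.0335), but it was no longer called on dropping pre-pregnancy replicate 1 (0.133), pre-pregnancy replicate 2 (0.147), pregnancy replicate 1 (0.0939) or pregnancy replicate 2 (0.0939). A second Stat2 probe set, tested by itself, gave -0.325 ± 0.161, adjusted p = 0.223. Irf9 was at 7.11 and 7.26 pre-pregnancy, 7.4 and 6.97 near term and 7.25 and 7.22 after birth, with overlapping stages (0.0 ± 0.15, adjusted p = 1.0). Irf7, an amplifier of type I interferon production, spanned 6.88 to 7.25 over all arrays, also with overlap (0.095 ± 0.129, adjusted p = 0.652).

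Irf1, shown above with its GAS match, was at 8.66 and 8.77 in the pre-pregnancy stage, 8.87 and 9.02 at day 21 and 9.04 and 9.09 postpartum (0.23 ± 0.107, adjusted p = 0.19). Its stages did not overlap and pre-pregnancy was lowest, although the gene was not called. Irf8, a factor of macrophages and dendritic cells, was at 7.2 in both livers pre-pregnancy, 6.84 and 7.13 near term and 7.1 and 6.93 after birth and was not called (-0.215 ± 0.128, adjusted p = 0.293). Its second, dimmer probe set read 7.1 and 7.0 pre-pregnancy, 6.4 and 6.37 near term and 6.33 and 6.27 after birth. With each probe set tested by itself in limma, it was called lower near term (-0.665 ± 0.102, adjusted p = 0.00724). It was also called lower postpartum against pre-pregnancy (-0.75 ± 0.102, adjusted p = 0.00676), where the brightest probe set was not (-0.185 ± 0.128, adjusted p = 0.461). The probe sets of Irf8 thus disagree on both calls.

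Among the type I targets, Zbp1 and Ifit1 had the largest falls. Zbp1, a sensor of Z-form nucleic acids that can trigger necroptosis, was at 7.7 and 7.62 in the pre-pregnancy stage, 6.41 and 6.51 at day 21 and 6.65 and 6.85 postpartum. The stages did not overlap, and pregnancy was lowest. Zbp1 fell 2.3-fold (-1.2 ± 0.113, adjusted p = 0.00158), -1.25 to -1.15 over the arrays dropped in turn, while its dimmer probe set, tested by itself, gave -0.5 ± 0.154, adjusted p = 0.0726.

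Dhx58, which encodes the RNA sensor LGP2, was at 6.07 and 6.08 pre-pregnancy, 5.36 and 5.19 near term and 5.85 and 5.8 after birth, close to the dim mark near term. It fell by 0.8 (SE 0.106, adjusted p = 0.00452), and it was no longer called on dropping pre-pregnancy replicate 1 (0.0528). Its other probe sets, both under the dim mark, gave 0.065 ± 0.135 and 0.125 ± 0.105. Ifih1, which encodes the RNA sensor MDA5, was at 9.07 and 8.95 in the pre-pregnancy stage, 8.73 and 8.99 at day 21 and 9.3 and 9.08 postpartum, with overlap between pregnancy and pre-pregnancy, and was not called (-0.15 ± 0.132, adjusted p = 0.48).

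The Ifit proteins bind viral RNA and block its translation. Ifit1 was at 7.08 and 6.96 pre-pregnancy, 6.21 and 6.03 near term and 6.47 and 6.54 after birth, with no overlap between any of the stages. It fell 1.87-fold (-0.9 ± 0.112, adjusted p = 0.00364), and it was no longer called on dropping pre-pregnancy replicate 1 (0.0506). Ifit3 was at 7.26 and 7.2 in the pre-pregnancy stage, 6.73 and 6.46 at day 21 and 7.05 and 6.83 postpartum, lowest near term. It fell by 0.635 (SE 0.131, adjusted p = 0.0205), but it was no longer called on dropping pre-pregnancy replicate 1 (0.142), pre-pregnancy replicate 2 (0.0841) or pregnancy replicate 2 (0.0832). Ifit2 was at 5.38 and 5.31 pre-pregnancy, 4.92 in both livers near term and 5.28 and 5.02 after birth, near or under the dim mark, and missed the threshold (-0.425 ± 0.117, adjusted p = 0.0509).

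Parp9 and Parp14, ADP-ribosyltransferase family members that tune interferon signalling, also fell. Parp9 was at 10.24 and 10.27 in the pre-pregnancy stage, 9.55 and 9.44 at day 21 and 10 and 10.01 postpartum, each stage apart from the others. It fell by 0.76 (SE 0.0999, adjusted p = 0.00446), which is 1.69-fold. Parp14 was at 7.77 and 8.08 pre-pregnancy, 7.17 and 7.4 near term and 7.96 and 7.95 after birth, with the pregnant arrays lowest. It fell by 0.64 (SE 0.137, adjusted p = 0.0232), but it was no longer called on dropping pre-pregnancy replicate 1 (0.0631), pre-pregnancy replicate 2 (0.11) or pregnancy replicate 1 (0.0805). Rtp4, a chaperone that restrains some viruses, was at 8.69 and 8.77 in the pre-pregnancy stage, 8.11 and 8.04 at day 21 and 8.66 and 8.57 postpartum, again lowest near term. It fell by 0.655 (SE 0.102, adjusted p = 0.00819), and it was no longer called on dropping pre-pregnancy replicate 1 (0.0631) or pre-pregnancy replicate 2 (0.0539).

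The other 12 type I targets did not pass the test in pregnancy. Rsad2, which encodes viperin, was at 7.64 and 7.46 pre-pregnancy, 7.41 and 6.7 near term and 7.44 and 7.46 after birth (-0.495 ± 0.209, adjusted p = 0.153). Its difference was -0.85 (adjusted p = 0.0138) on dropping pregnancy replicate 1 and -0.14 on dropping pregnancy replicate 2. Its other probe sets, tested by themselves, gave -0.47 ± 0.15, adjusted p = 0.0798 and, for the dimmest, which lay under the dim mark, -0.585 ± 0.119, adjusted p = 0.019; postpartum against pre-pregnancy the dimmest gave -0.545 ± 0.119, adjusted p = 0.0326. The probe sets of Rsad2 thus disagree on the call. The pro-apoptotic gene Xaf1 (-0.405 ± 0.131, adjusted p = 0.0803) and Usp18, which removes ISG15 from proteins and damps the receptor (-0.435 ± 0.198, adjusted p = 0.18), were not called. The oligoadenylate synthetase family members Oasl1, Oasl2 and Oas1a had log2 differences of 0.04, 0.02 and -0.07. Ifi35 stood at -0.02 and the virus-tethering gene Bst2 at 0.09. The antiviral GTPase genes Mx1 (0.01) and Mx2 (-0.08) are defective in C57BL/6 mice, and RefSeq lists both as transcribed pseudogenes.

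**Figure D2:**
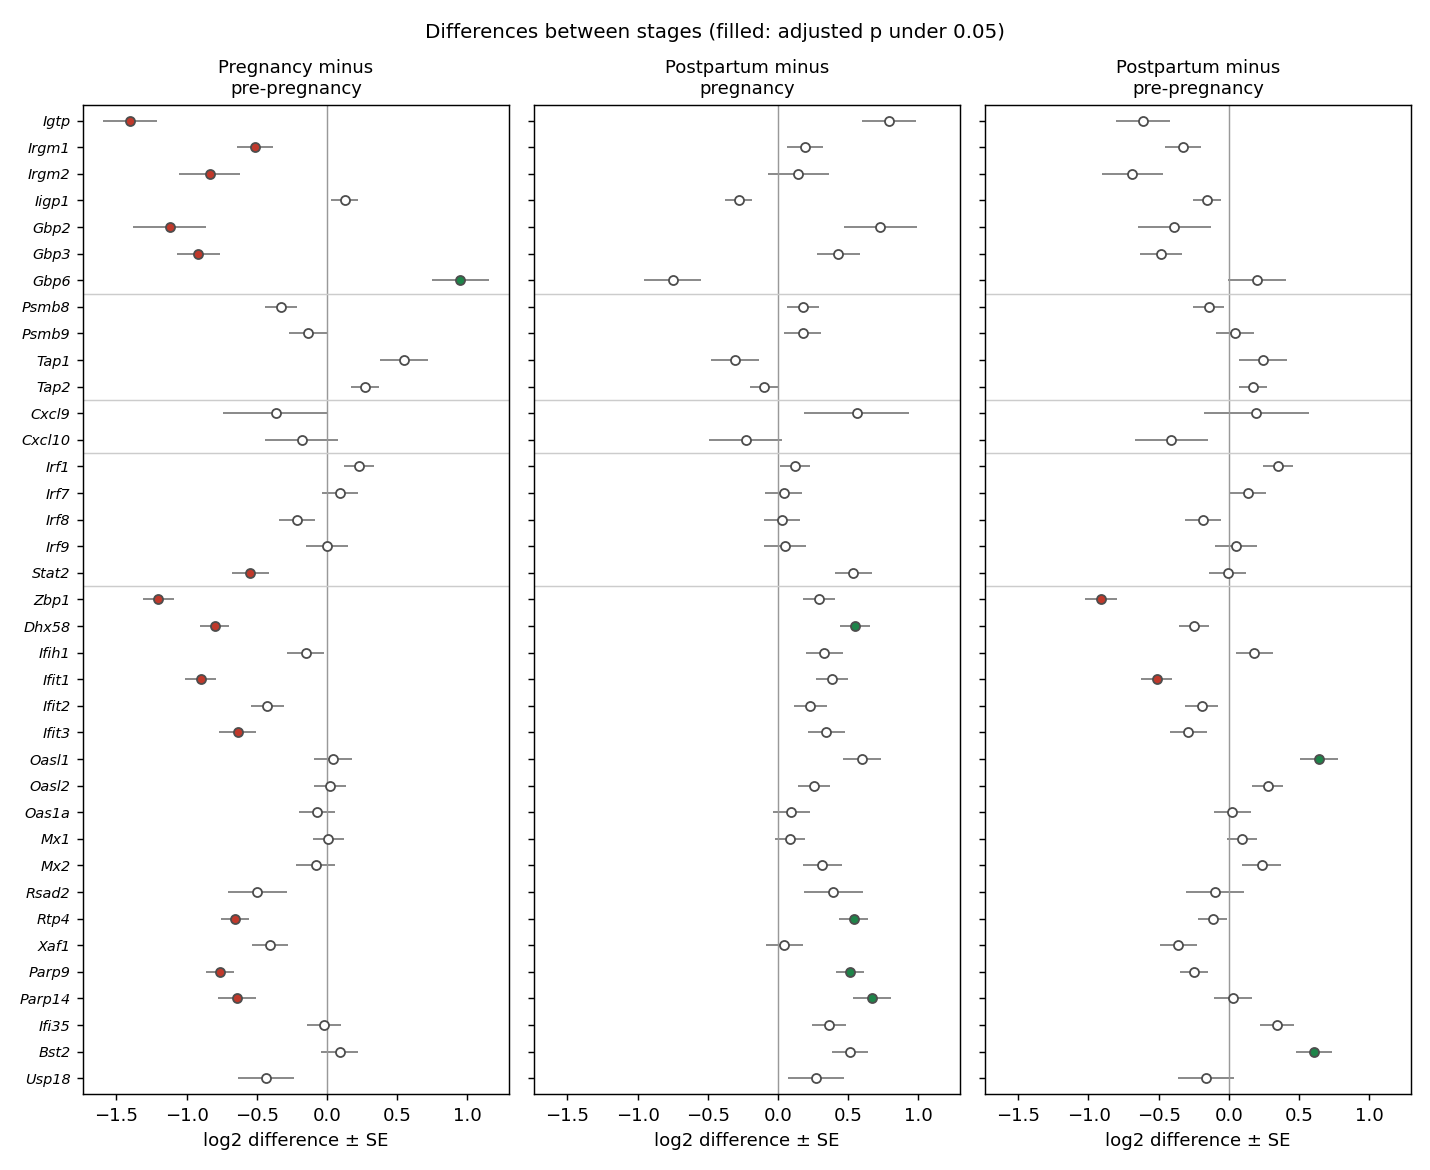
Log2 difference ± SE of each of the 37 genes in the 3 comparisons between stages, 2 arrays against 2, filled where limma's test was passed (red lower, green higher). In pregnancy 13 passed as lower and 1 as higher, postpartum against pregnancy 4 passed as higher, and postpartum against pre-pregnancy 2 passed as lower and 2 as higher.

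The 8 members that fell in pregnancy and had a promoter window (Igtp, Irgm1, Irgm2, Gbp2, Gbp3, Stat2, Ifit1 and Ifit3) each held an ISRE core, and so did 5 of the 18 other members with one (27.8%). For the GAS letters the counts were 2 of 8 and 7 of 18. Of all 1196 genes called lower in pregnancy with a window, 4.77% held an ISRE core, and of 791 called higher, 3.54%. These shares were not tested against each other, and the nearly identical windows of Igtp and Irgm2 do not count separately in them.

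The rest of the pathway was taken from lists of 118 further genes, of which 99 were measured, and 15 fell and 2 rose in pregnancy. Of all genes 8.25% were called lower and 5.46% higher. Of 32 further type I targets 8 fell and 0 rose, with a median difference of -0.2, where that of all genes was 0.045. The 4 with the largest differences were Ddx60, an antiviral helicase (-0.71 ± 0.159, dim at 4.36 to 5.32), Samd9l (-0.71 ± 0.187), Ube2l6, the conjugating enzyme for ISG15 (-0.695 ± 0.132), and Herc6, an ISG15 ligase in mice (-0.68 ± 0.183).

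Upstream genes of the relay had few calls, near the 8.25% lower and 5.46% higher of all genes. Of 8 genes for interferons and the cytokines that induce them, 1 fell and 1 rose. Ifng itself lay at 3.4 to 3.68 over the 6 arrays and Ifnb1 at 4.24 to 4.58, both under the dim mark. Il18, a cytokine that induces interferon gamma, was at 9.4 and 9.36 in the pre-pregnancy stage, 8.59 and 8.7 at day 21 and 9.4 and 9.06 postpartum, lowest near term, and fell by 0.735 (SE 0.132, adjusted p = 0.0128). Ifna2 was at 5.18 and 5.09 pre-pregnancy, 5.98 and 5.7 near term and 5.07 and 5.29 after birth, highest near term but close to the dim mark, and rose by 0.705 (SE 0.133, adjusted p = 0.0154). Interferon alpha genes are close copies of one another, so this probe set may read several.

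Of 10 receptor, kinase and STAT genes, Jak1 fell by 0.465 (SE 0.122, adjusted p = 0.0442) and Stat3, which mediates interleukin signals, rose by 0.615 (SE 0.112, adjusted p = 0.0133). The receptor genes Ifnar1 (-0.305 ± 0.134), Ifnar2 (0.34 ± 0.104), Ifngr1 (-0.035 ± 0.147) and Ifngr2 (0.33 ± 0.178) were not called. Of 10 negative regulators limma called 0, with 1 lower and 2 higher at an unadjusted p under 0.05, near the 31% of all genes. Of 17 genes for nucleic acid sensing 1 fell, the endosomal RNA receptor gene Tlr3 (-0.58 ± 0.136, adjusted p = 0.0304).

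Of 7 MHC class II genes, which interferon gamma induces through Ciita, limma called 0. At an unadjusted p under 0.05, which 31% of all genes had in either direction, 2 were lower and 0 higher. H2-Aa was at 10.22 and 10.64 in the pre-pregnancy stage, 10.1 and 8.95 at day 21 and 9.18 and 9.86 postpartum (-0.905 ± 0.367, adjusted p = 0.14). The pregnant livers were far apart here too, and pregnancy replicate 2 was the lower of them, as for Cxcl9.

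**Figure D3:**
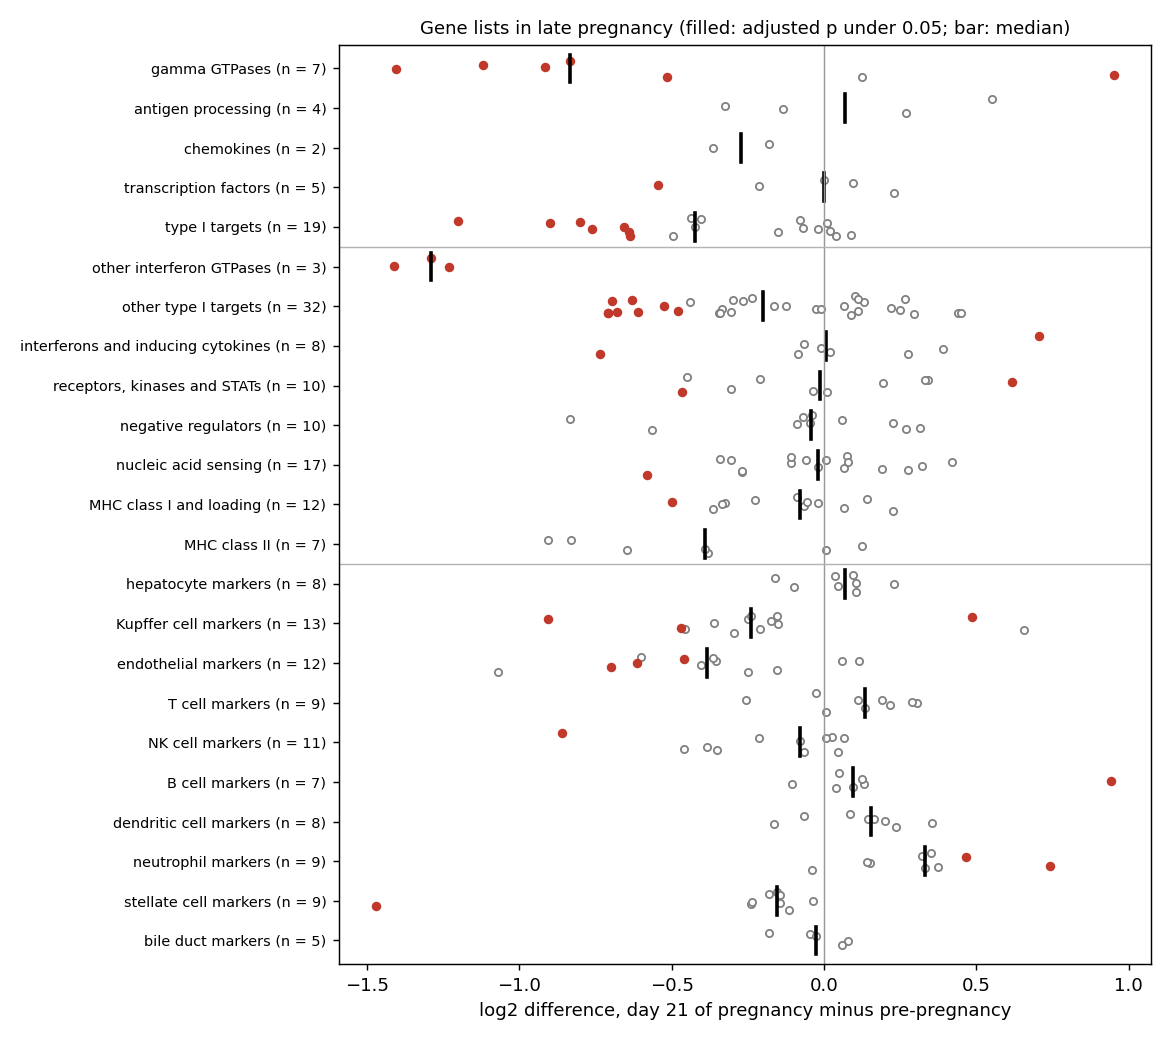
Log2 difference between day 21 of pregnancy and pre-pregnancy for the measured genes of each list, covering the groups of interferon response genes, the further pathway lists and the cell type markers; each point is a gene, filled where called, and bars are medians. The called genes that were lower lie mostly in the GTPase and type I lists, and the medians of the antigen processing, receptor and hepatocyte lists were 0.068, -0.012 and 0.07.

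Some markers of other liver cells were also called in pregnancy, to be read against 8.25% of all genes called lower, 5.46% called higher and 31% with an unadjusted p under 0.05. In whole liver fewer cells of a type and less RNA per cell cannot be told apart. The single calls among stellate, NK and B cell markers are near that background. Of 12 endothelial markers 3 fell and 0 rose (Emcn -0.7 ± 0.173, Tek -0.615 ± 0.133 and Kdr -0.46 ± 0.104). At an unadjusted p under 0.05, 9 were lower and 0 higher. The summed linear signal of the 12 was 7617 to 9966 pre-pregnancy, 6516 to 6727 near term and 6207 to 6610 postpartum. Of 13 Kupffer cell markers 2 fell (Timd4 -0.905 ± 0.1 and Lyz2 -0.47 ± 0.123) and 1 rose (Cd163 0.485 ± 0.111), with sums of 11002 to 11502, 8639 to 10627 and 11070 to 11802 in the same order, lowest in pregnancy replicate 2. Of 9 stellate cell markers 1 fell, Lrat (-1.47 ± 0.313), with sums of 9712 to 10461, 8488 to 8562 and 6918 to 8437.

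Lymphoid and myeloid marker lists were partly dim. Of 11 NK cell markers 8 lay under the dim mark, Ncr1 among them, and 1 fell, Gzmb, itself dim, from 5.24 and 5.14 to 4.32 and 4.34; sums were 419 to 431, 316 to 398 and 328 to 353. Of 9 T cell markers 4 were dim, Cd8a among them, and limma called 0, with 0 lower and 2 higher at an unadjusted p under 0.05; sums were 330 to 353, 368 to 373 and 340 to 371. Of 7 B cell markers 1 rose, Ighm (0.94 ± 0.109), and 4 were dim. The median over the 7 was 0.095, and Ighm is the brightest of them; sums were 358 to 371, 523 to 551 and 496 to 526. Of 9 neutrophil markers 2 rose (S100a9 0.74 ± 0.102 and Mpo 0.465 ± 0.104), and 6 were higher and 0 lower at an unadjusted p under 0.05. Dim were 6 of the 9, Mpo among them. Sums over the 9 were 468 to 507, 598 to 625 and 490 to 506. Of 8 dendritic cell, 8 hepatocyte and 5 bile duct markers limma called 0, with 0, 1 and 0 at an unadjusted p under 0.05. The part of these markers in the interferon gene differences was not tested.

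Day 7 postpartum was then set against pregnancy, a comparison that shares the pregnant arrays with the one above. Of the 37 genes, 4 rose and 0 fell by limma, with 15 higher and 2 lower at an unadjusted p under 0.05. Over all genes 2.41% were called higher and 0.879% lower (3.29% in all), and 20.7% had an unadjusted p under 0.05. All genes split into 439 higher and 160 lower, or 292 and 175 after quantile normalization again. The median difference was 0.27 for the 37 and -0.01 for all genes.

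The 4 genes that rose were type I targets. Parp14 rose by 0.67 (SE 0.137, adjusted p = 0.0448), Dhx58 by 0.55 (SE 0.106, adjusted p = 0.0377), Rtp4 by 0.54 (SE 0.102, adjusted p = 0.0355) and Parp9 by 0.51 (SE 0.0999, adjusted p = 0.0401). Rtp4, Parp9 and Parp14 lost their calls whichever of the 6 arrays was dropped, with adjusted p from 0.0601 to 0.183, and Dhx58 kept its own only on dropping pregnancy replicate 1 (0.0445). The 4 rises became 1 after quantile normalization again, 2 with arrays centred on their medians, 1 with a gene's probe sets averaged and 0 with only the 2 stages fitted. All 19 type I targets had a difference above 0, as did 8746 of all 18193 genes, and their median was 0.345. In 16 of the 19 both postpartum arrays lay above both pregnant ones, as in 25.1% of all genes. Some of these differences were small. Xaf1 (0.045 ± 0.131) and Oas1a (0.095 ± 0.13) went below 0 on dropping pregnancy replicate 1 or postpartum replicate 2. Mx1, Oasl2 and Ifit2 lay under the dim mark.

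Of the 7 GTPases limma called 0 after birth, with 3 higher and 2 lower at an unadjusted p under 0.05. Igtp stood at 0.79 ± 0.192, adjusted p = 0.0718, Gbp2 at 0.73 ± 0.26, adjusted p = 0.169 and Gbp6 at -0.75 ± 0.205, adjusted p = 0.0961. Both postpartum arrays of Igtp and Gbp2 lay above both pregnant ones, and those of Gbp6 lay below, as in 25% of all genes. Outside the 39, Gbp8 rose by 0.91 (SE 0.182, adjusted p = 0.0428) and Gbp7 by 0.76 (SE 0.135, adjusted p = 0.0298). Limma called 0 of the 4 antigen processing genes and 0 of the 2 chemokines, and none of these (0) had an unadjusted p under 0.05. Among related genes Psmb10 rose by 0.565 (SE 0.107, adjusted p = 0.0355) and the exonuclease gene Isg20 by 0.765 (SE 0.124, adjusted p = 0.0225), and Ifna2 fell by 0.66 (SE 0.133, adjusted p = 0.0437). Of the cell markers limma called only S100a9 of neutrophils, which was lower (-0.525 ± 0.102, adjusted p = 0.0388). At an unadjusted p under 0.05, which 20.7% of all genes had, 5 of 9 neutrophil markers were lower and 0 higher. The part of neutrophils in the interferon gene differences was not tested.

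Day 7 postpartum was last set against the pre-pregnancy stage, to see which genes still differed a week after birth; it shares arrays with both earlier comparisons. Of the 37 genes 2 were lower and 2 higher, where 3.75% and 3.91% of all genes were called (7.66% in all). Both postpartum arrays lay below both pre-pregnancy ones in 17 of the 37 genes and above them in 9; over all genes these shares were 22.6% and 30%. Zbp1 was 1.88-fold lower (-0.91 ± 0.113, adjusted p = 0.00671). It was no longer called on dropping pre-pregnancy replicate 1, where the difference was -0.87. Its dimmer probe set, tested by itself in limma, was not called either (-0.6 ± 0.154, adjusted p = 0.0552). Ifit1 was 1.43-fold lower (-0.515 ± 0.112, adjusted p = 0.0339), but it was no longer called on dropping pre-pregnancy replicate 1 (0.225), pre-pregnancy replicate 2 (0.1), postpartum replicate 1 (0.138) or postpartum replicate 2 (0.14).

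The genes that were higher postpartum had not been called in pregnancy. Oasl1, which limits production of Irf7, was at 6.89 and 7.02 in the pre-pregnancy stage, 6.88 and 7.11 at day 21 and 7.46 and 7.73 postpartum. Its postpartum arrays lay above the other 4. Oasl1 was 1.56-fold higher (0.64 ± 0.135, adjusted p = 0.0312), but it was no longer called on dropping pre-pregnancy replicate 1 (0.223), pre-pregnancy replicate 2 (0.103), postpartum replicate 1 (0.0533) or postpartum replicate 2 (0.187). Bst2, whose product tethers virus particles to the cell, was at 10.16 and 10.11 pre-pregnancy, 10.32 and 10.13 near term and 10.6 and 10.88 after birth and was likewise highest postpartum. It was 1.52-fold higher (0.605 ± 0.129, adjusted p = 0.032), but it was no longer called on dropping pre-pregnancy replicate 1 (0.184), pre-pregnancy replicate 2 (0.141) or postpartum replicate 2 (0.189).

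Limma called 0 of the 7 GTPases between postpartum and pre-pregnancy. At an unadjusted p under 0.05, 4 were lower and 0 higher. Of all genes 22.9% had such a p in either direction, and 1952 of 18193 were lower. In 6 of the 7 both postpartum arrays lay below both pre-pregnancy ones, as in 22.6% of all genes. Cell markers called in this comparison were Timd4 (-0.61 ± 0.1) and Marco (1.03 ± 0.202) of Kupffer cells, Ighm (0.96 ± 0.109) and the dim Ms4a1 (-0.54 ± 0.126) of B cells, and the dim Gzmb (-0.64 ± 0.0991) and Klrd1 (-0.625 ± 0.117) of NK cells. Of 12 endothelial markers limma called 0, with 7 lower and 0 higher at an unadjusted p under 0.05. Their part in the GTPase values was not tested. Irgm2 stood at -0.69 ± 0.217, adjusted p = 0.0991 and Igtp at -0.615 ± 0.192, adjusted p = 0.0977. Ifi47, outside the 39, was called lower (-0.81 ± 0.109, adjusted p = 0.00851), as was the membrane protein gene Ifitm1 (-0.425 ± 0.0997, adjusted p = 0.0438). Of the sensing and kinase genes, Ikbke (0.69 ± 0.129, adjusted p = 0.0218), Trim25 (0.63 ± 0.134, adjusted p = 0.0318) and Tyk2 (0.55 ± 0.104, adjusted p = 0.0226) were called higher. The peptide-loading gene Tapbp was also higher, at 9.86 and 10.04 in the pre-pregnancy stage, 10.23 and 10.12 at day 21 and 10.46 and 10.51 postpartum (0.535 ± 0.11, adjusted p = 0.0288).

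A single limma test of any difference among the 3 stages called 13 of the 37 genes, where 13.8% of all genes were called. They were 3 of 7 GTPases, 1 of 5 transcription factors and 9 of 19 type I targets, with 0 among antigen processing genes and chemokines. Zbp1 had the lowest adjusted p of the 37 in that test (0.00243).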

How the data were processed

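RNA of whole livers (250 ng) was labelled with biotin and hybridised to Affymetrix mouse arrays, per the labels. The authors deposited log2 signals for 45101 probe sets on 6 arrays, made with RMA and Affymetrix Power Tools per the submitters' processing notes, with versions not given in the sources used here. RMA gives arrays a like distribution, which hides a change shared by most genes, and it compresses dim differences. That the base is 2 was inferred from values of 2.69 to 15.05. Feeding and time of day are unknown and cannot be told apart from stage.

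Probe sets with 1 symbol (34945) gave 18193 genes; 932 with several symbols were left out. limma 3.58.1 in R 4.3.3 was fitted with a mean per stage (3 residual and 4.8 prior degrees of freedom). The script was tested on simulated data. The number of arrays limits the precision, and the labels say only that replicates are biological. Same-numbered arrays showed little shared deviation from their stage means and were fitted as unpaired. The labels do not say whether animals or batches were paired. The members and lists were chosen with earlier results of these data known. Every member is covered. Of other lists, up to 4 called genes (3 for cell markers) were named by size of difference; H2-K1, B2m, H2-Aa, Ifng, Ifnb1 and the 4 receptor genes were added after their values were seen. Alternatives were a replicate block, a filter on dim genes, other scalings, another variance, other probe set rules, fits of 2 stages, dropping each array and a threshold of 0.1.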

Additional observations from a re-analysis of the deposited data

How the results depend on the processing

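The 22 called differences of members kept their direction in 330 of 330 alternative settings and their call in 243. Most of these settings could not reverse a direction, so that count says little of robustness. The replicate block, the filter on dim genes, another variance, fits of 2 stages and the threshold of 0.1 leave a difference unchanged. Dropping 1 array could not reverse it, since the arrays of the 2 stages overlapped in no called difference. The threshold of 0.1 also keeps every call. Of the differences not called, the sign changed in 56 of 1237. Over the arrays dropped in turn, 4 to 12 members were called lower and 0 to 1 higher in pregnancy. Postpartum against pregnancy the ranges were 0 to 1 lower and 0 to 4 higher, and postpartum against pre-pregnancy 0 to 3 lower and 0 to 2 higher. The test over the 3 stages called 3 to 15. A threshold of 0.1 gave 2 higher in pregnancy, 1 lower and 8 higher postpartum against pregnancy, and 5 lower postpartum against pre-pregnancy. The 4 rises after birth became 1 after quantile normalization again, 2 with arrays centred on their medians, 1 with a gene's probe sets averaged and 0 with only the 2 stages fitted; the cause was not tested. Same-numbered arrays deviated from their stage means with correlations of 0.028, 0.111 and -0.027, which give no sign of pairing but cannot exclude it. With the replicate block 15 members were lower and 1 higher in pregnancy, 5 were higher postpartum against pregnancy, 3 lower and 2 higher postpartum against pre-pregnancy, and the test over the 3 stages called 16. In pregnancy Irgm1, Irgm2 and Stat2 were not called after quantile normalization again (adjusted p = 0.084, 0.0738 and 0.0501 by limma), nor Irgm1 with centred arrays (0.0541), Irgm2 with 2 stages fitted (0.0629), or Stat2, Dhx58 and Parp14 with probe sets averaged (0.0708, 0.207 and 0.0859). With 2 arrays a stage and no detection calls, values under the dim mark carry little information.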
